A study of Mus musculus with 18 samples.

Results

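Messenger RNA (mRNA) is spliced, given a poly(A) tail, translated and finally degraded, and 6 mouse genes that act along this path gave rise to circular RNAs (circRNAs) in the livers described here. A circRNA forms by back-splicing, in which an exon's 3′ end is spliced back to the 5′ end of that exon or of an earlier one, so that the RNA is a closed circle without a poly(A) tail. The genes were Hnrnpu and Clk1, which act in splicing, Pabpn1, which acts in polyadenylation, Gigyf2, which acts in translational repression, and Cnot6l and Pan3, which act in removal of the poly(A) tail. Every listed circRNA with ends inside these genes was taken, which gave 7 of the 474 circRNAs of the series, 1 from each gene and a pair from Cnot6l. The genes were chosen by function with results of these data known, and the list holds only circRNAs above 0 in at least 9 of the 18 libraries. The differences below are therefore a description of these genes and no independent support for any pattern. The least often detected of the 7, those of Pabpn1 and of Cnot6l exons 2 to 5, were above 0 in 10 libraries.

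The libraries came from liver RNA of 18 male C57BL/6 mice, 6 in each of 3 groups, bought at 6 weeks of age and treated for 12 weeks. Control mice had corn oil injected into the peritoneum 2 times a week, at 10 µl per g of body weight, and were given distilled water by mouth each day. Cirrhosis mice had 10% carbon tetrachloride (CCl4), a hepatotoxin, in that oil, with the same water. Cirrhosis-PTH mice had the CCl4 and, in place of water, Pien Tze Huang (PTH), a traditional Chinese medicine, at 0.25 mg per g daily. All groups shared the strain, the sex and the oil injections, and the Cirrhosis and Cirrhosis-PTH groups shared CCl4.

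The products of these genes follow one another in the life of an mRNA. hnRNP U is an abundant nuclear RNA-binding protein that takes part in alternative splicing and in chromatin organisation, and CLK1 is a kinase that phosphorylates the serine- and arginine-rich splicing factors. PABPN1 binds the growing poly(A) tail in the nucleus and stimulates poly(A) polymerase. In the cytoplasm GIGYF2 acts with the cap-binding protein 4EHP to repress translation, PAN3 is the partner of the nuclease PAN2, which trims long poly(A) tails, and CNOT6L is a nuclease subunit of the CCR4-NOT complex, which shortens them further.

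What each measurement counts is the sequence across a back-splice, shown here because it is the only part of a circle that tells it from the linear mRNA. Each line gives the last 15 bases before the junction in lower case and the first 15 bases after it in capitals, 5′ to 3′ on the strand of the gene, from GENCODE M21 transcripts (GRCm38).
Hnrnpu: ggtctccctttcatgTCTGTCCATGTGAAT
Pabpn1: gggtcgaatctacagGTGATTCCCAAACGA
Clk1: gcaaatctgtaaactGGGAGGTAGACGTGT
Gigyf2: gaagaaaagatgtagGCTCCGTGCTCTGTC
Cnot6l exons 2 to 4: ctctaggtttaacagACTAATAGGGATGCC
Cnot6l exons 2 to 5: ttgacaatcttgcagACTAATAGGGATGCC
Pan3: tcccagagaaggaagTTCCGGGAATGGATG
The capitals of both Cnot6l circRNAs are identical, since both begin at exon 2, and the annotated start codon of Cnot6l begins at base 11 of them. The lower-case stretches differ, and reads over them tell apart the circle that ends with exon 4 from the one that ends with exon 5.

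The ends of 6 of the 7 circRNAs lay at splice sites of a protein-coding transcript. The Clk1 circRNA (chromosome 1, 58417013 to 58417383, minus strand) spans coding exons 6 to 7 of 13, 284 bp, with an intron of 87 bp between them. The Gigyf2 circRNA (chromosome 1, 87364104 to 87380008, plus strand) spans coding exons 4 to 8 of 29, 494 bp. The Pan3 circRNA (chromosome 5, 147450653 to 147455188, plus strand) spans coding exons 2 to 4 of 19, 260 bp. Both Cnot6l circRNAs hold 10 bp of 5′ untranslated region (UTR) and then coding sequence. The shorter (chromosome 5, 96128943 to 96134132, minus strand) spans exons 2 to 4 of 12, 395 bp, and the longer (96106216 to 96134132) adds exon 5, for 485 bp. The reads do not show which exons were kept between the ends, so these lengths are those of the annotated exons. Each of the 7 lengths leaves a remainder of 2 when divided by 3, so none was a whole number of codons, against 34.7% of the 435 listed circRNAs with both ends at exon ends of 1 transcript.

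The Hnrnpu circRNA (chromosome 1, 178323134 to 178325313, minus strand) lies at the 3′ end of its gene and outside the main coding sequence. Its upstream end is the start of an exon in 4 annotated transcripts, 3 of them of the nonsense-mediated decay class, in which a stop codon upstream of a later splice junction marks the mRNA for degradation. In the protein-coding transcript the same position falls inside the 3′ UTR of exon 14 of 14, and the downstream end of the circRNA lies beyond that transcript. The downstream end is an annotated splice donor in none of the 6 Hnrnpu transcripts that overlap the circRNA. It equals the last base of 1 transcript of the decay class, in its exon 6 of 6, and of the 435 placed circRNAs it was the 1 with an end at a transcript end. Transcripts that run on through these positions read AG just before the upstream end and GT just after the downstream end, the dinucleotides that mark introns. The annotated exons in between add up to 227 bp, of which 30 bp are coding in 2 of the transcripts of the decay class.

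The Pabpn1 circRNA (chromosome 14, 54897121 to 54897272, plus strand) is exon 6 of 7 alone, 152 bp, all coding, and 1 of 18 single-exon circles among the 435. The whole circle is short enough to show, with the 15 bases before the junction in capitals, after which the sequence runs on into its own first base.
Pabpn1 circle: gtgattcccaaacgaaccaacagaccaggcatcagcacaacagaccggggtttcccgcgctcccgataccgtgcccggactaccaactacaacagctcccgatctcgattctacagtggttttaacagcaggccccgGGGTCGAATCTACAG
Its GC content of 56.6% was above that of 95.9% of the placed circRNAs, whose median was 46.0%. The intron before it is 81 bp long, the shortest of all 435, where the median was 11695 bp and no other was under 100 bp. The intron after it is 744 bp long, against a median of 10469 bp. The exon also belongs to Gm20521, an annotated protein-coding gene on the same strand that shares it, so reads of the 2 hosts cannot be told apart.

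**Figure D1:**
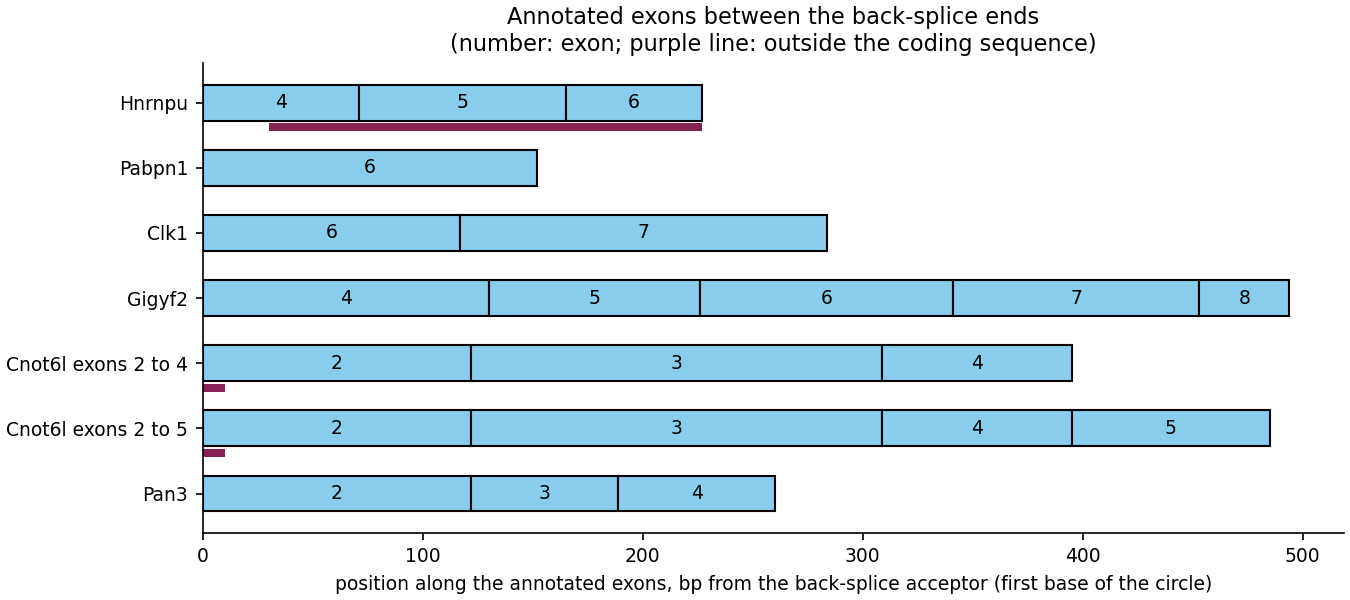
Annotated exons between the back-splice ends of the 7 circRNAs, in bp from the first base of the circle, with exon numbers in the boxes and a purple line under sequence outside the coding region. Pabpn1 is a single exon of 152 bp, and 197 of the 227 bp of Hnrnpu lie outside the coding sequence.

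Flanking introns of the other circRNAs were within the range of the list. The Cnot6l circRNAs follow an intron of 27804 bp, and the intron after them is 22637 bp for the shorter and 7902 bp for the longer circle. For Pan3 the introns are 19643 bp and 32922 bp, for Gigyf2 9617 bp and 23658 bp, and for Clk1 2283 bp and 2328 bp. The intron before the Hnrnpu circRNA is 4554 bp. The Clk1 circle had a GC content of 39.1%, and 8.74% of the placed circRNAs had a lower one.

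**Figure D2:**
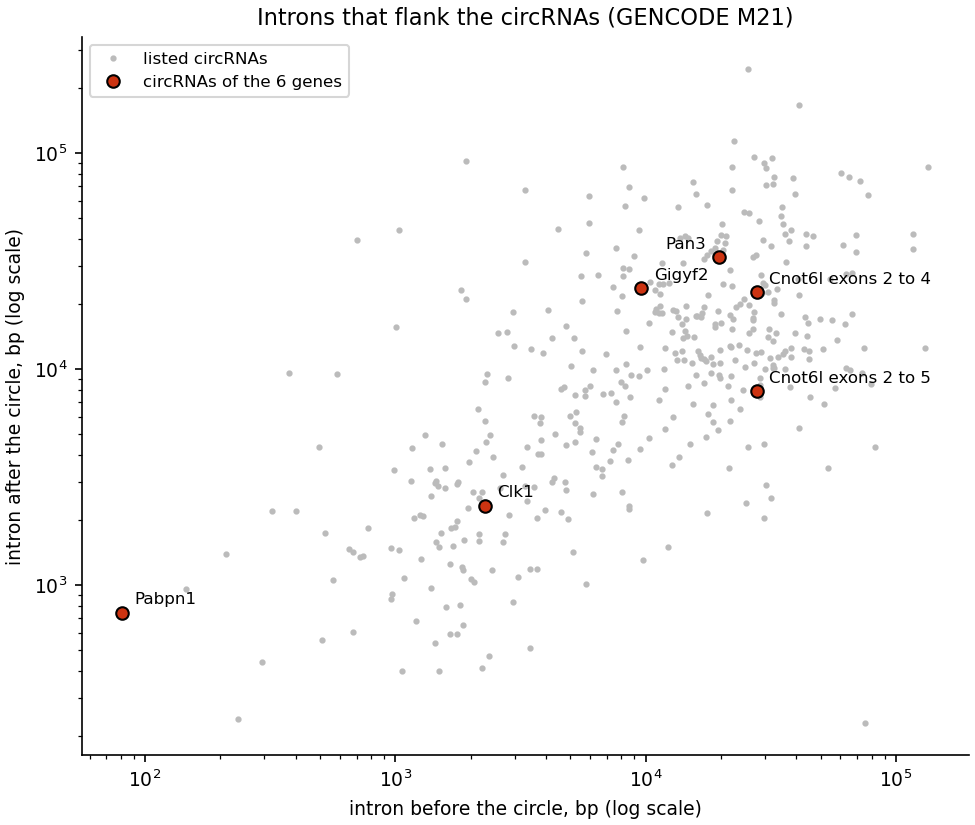
Length of the intron before (x axis) and after (y axis) each circRNA in bp on log scales, with all placed circRNAs in grey and those of the 6 genes in red; Hnrnpu has no annotated intron after it and is left out. Pabpn1 sits at the far left, at 81 bp and 744 bp, away from the rest.

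Depth was low, which limits every value below. Values are CPM, the back-splice reads of a circRNA scaled to a common library total, in which 1 read was worth 0.0343 to 0.370 CPM depending on the library. The libraries held 794 to 8431 back-splice reads and 223 to 405 of the 474 circRNAs, with the fewest circRNAs in Cirrhosis 6. A count of 0 allows up to 3 reads, which lay at 0.103 to 1.11 CPM, and such limits cover counting error only. Of markers fixed to check the tissue, 1 of 8 hepatocyte genes (Egfr), 2 of 7 macrophage genes and 1 of 5 lymphocyte genes (Ikzf1) had a listed circRNA. Means in Control, Cirrhosis and Cirrhosis-PTH were 1.52, 1.23 and 1.34 CPM for Egfr and 0.514, 0.901 and 0.373 CPM for Ikzf1. Endothelial, stellate and cholangiocyte genes had no listed circRNA, so circRNAs say little about the cells present. In whole liver, fewer cells of a type and less RNA per cell cannot be told apart.

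Over all 18 libraries the order of mean CPM was Gigyf2, Hnrnpu, Pan3, Cnot6l exons 2 to 4, Pabpn1, Clk1 and Cnot6l exons 2 to 5. The order depended on the group: in Control Hnrnpu came first, at 1.82 CPM against 0.994 for Gigyf2 and 0.928 for Pabpn1, while in Cirrhosis-PTH Pabpn1 came last, at 0.0506. Each value counts reads over 1 junction, so these levels do not depend on the length of the circle. Gigyf2 stood at 1.36 ± 0.656 CPM (mean ± SD, n = 18) and ranked 39 among the 474. Hnrnpu stood at 1.27 ± 0.788 and ranked 46. Cnot6l exons 2 to 5, the lowest, stood at 0.250 ± 0.397 and ranked 361. Neighbours in this order differed by less than the SD of either. The SD relative to the mean ran from 48.4% for Gigyf2, the single one of the 7 above 0 in all 18 libraries, to 159% for Cnot6l exons 2 to 5.

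Among the splicing genes, Hnrnpu was the steadiest in Control and low or at 0 in most livers given CCl4. Control libraries stood at 1.43 CPM at the lowest, 1.76 at the median and 2.37 at the highest. Cirrhosis libraries stood at 0, 0.559 and 2.95 CPM in the same order, and Cirrhosis-PTH libraries at 0.671, 1.17 and 1.51. Of the 12 libraries given CCl4, 10 lay below every Control library, 5 in each group, while Cirrhosis 6 lay above every Control library and Cirrhosis-PTH 5 inside their range. The Control mean was 1.82 ± 0.366 CPM, the Cirrhosis mean 0.879 ± 1.13 and the Cirrhosis-PTH mean 1.11 ± 0.355 (SD, n = 6 each), from 69, 34 and 71 reads. Cirrhosis 6 alone gave 16 of the 34. Without it the Cirrhosis mean was 0.465 ± 0.557 CPM (n = 5) and the highest Cirrhosis library, at 1.21 CPM, lay below the lowest Control library. Such a gap without Cirrhosis 6 held for 1 of the 474 circRNAs (0.211%), which was Hnrnpu itself. The others also lost Cirrhosis 6 and not their own highest library, so this share is no fair background. Cirrhosis 6 was left out because it was the highest for Hnrnpu, so this gap is a description. With all libraries the groups overlapped, and 0.0% of the 474 circRNAs were lower in Cirrhosis without overlap.

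Fold changes were taken as differences of log2(CPM + 0.143), where the added 0.143 makes those of scarce circRNAs too small. Hnrnpu differed by -1.78 ± 0.68 (SE) in Cirrhosis against Control, below the Control mean in 5 of 6 libraries. The limma unadjusted p was 0.00841 and the limma adjusted p, over all 474, was 0.234. Together with Pabpn1 it was 1 of 2 of the 7 with a lower value at an unadjusted limma p under 0.05, where 3.38% of all circRNAs were. The call changed with the scaling. When each library was set to a common median of the 26 circRNAs that every library held, the difference was -2.36 (limma adjusted p = 0.0485), a threshold that 0.422% of all circRNAs passed with that centring, while edgeR and DESeq2 on the recovered reads gave adjusted p values of 0.586 and 0.223. The same centring moved the median over all 474 from 0.12 to -0.46. Without Cirrhosis 6 the difference was -2.27 and the limma adjusted p 0.132, while without Cirrhosis 4 or 5, both at 0, it was -1.38 (limma adjusted p = 0.450 and 0.396). With a pseudocount of 1 CPM it was -0.76 (limma adjusted p = 0.315). Over 19 alternatives the adjusted p ran from 0.0485 to 0.799. The highest came from a limma fit of same-numbered libraries only, which left out Control 7 and 8 and Cirrhosis 4 and 5. Hnrnpu in Cirrhosis-PTH differed by 1.10 ± 0.68 from Cirrhosis (limma adjusted p = 0.646) and by -0.68 ± 0.68 from Control (limma adjusted p = 0.876), with 6 of 6 libraries below the Control mean. The summed level of the 3 macrophage circRNAs, of Adgre1 and Mertk, had its highest mean in Cirrhosis, where the Hnrnpu mean was lowest. This sum was 0 to 1.02 CPM in Control, 0.184 to 6.76 in Cirrhosis and 0.149 to 1.19 in Cirrhosis-PTH. Of the 7 macrophage genes, 5 were without a listed circRNA. The part of macrophages in the Hnrnpu result was not tested.

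**Figure D3:**
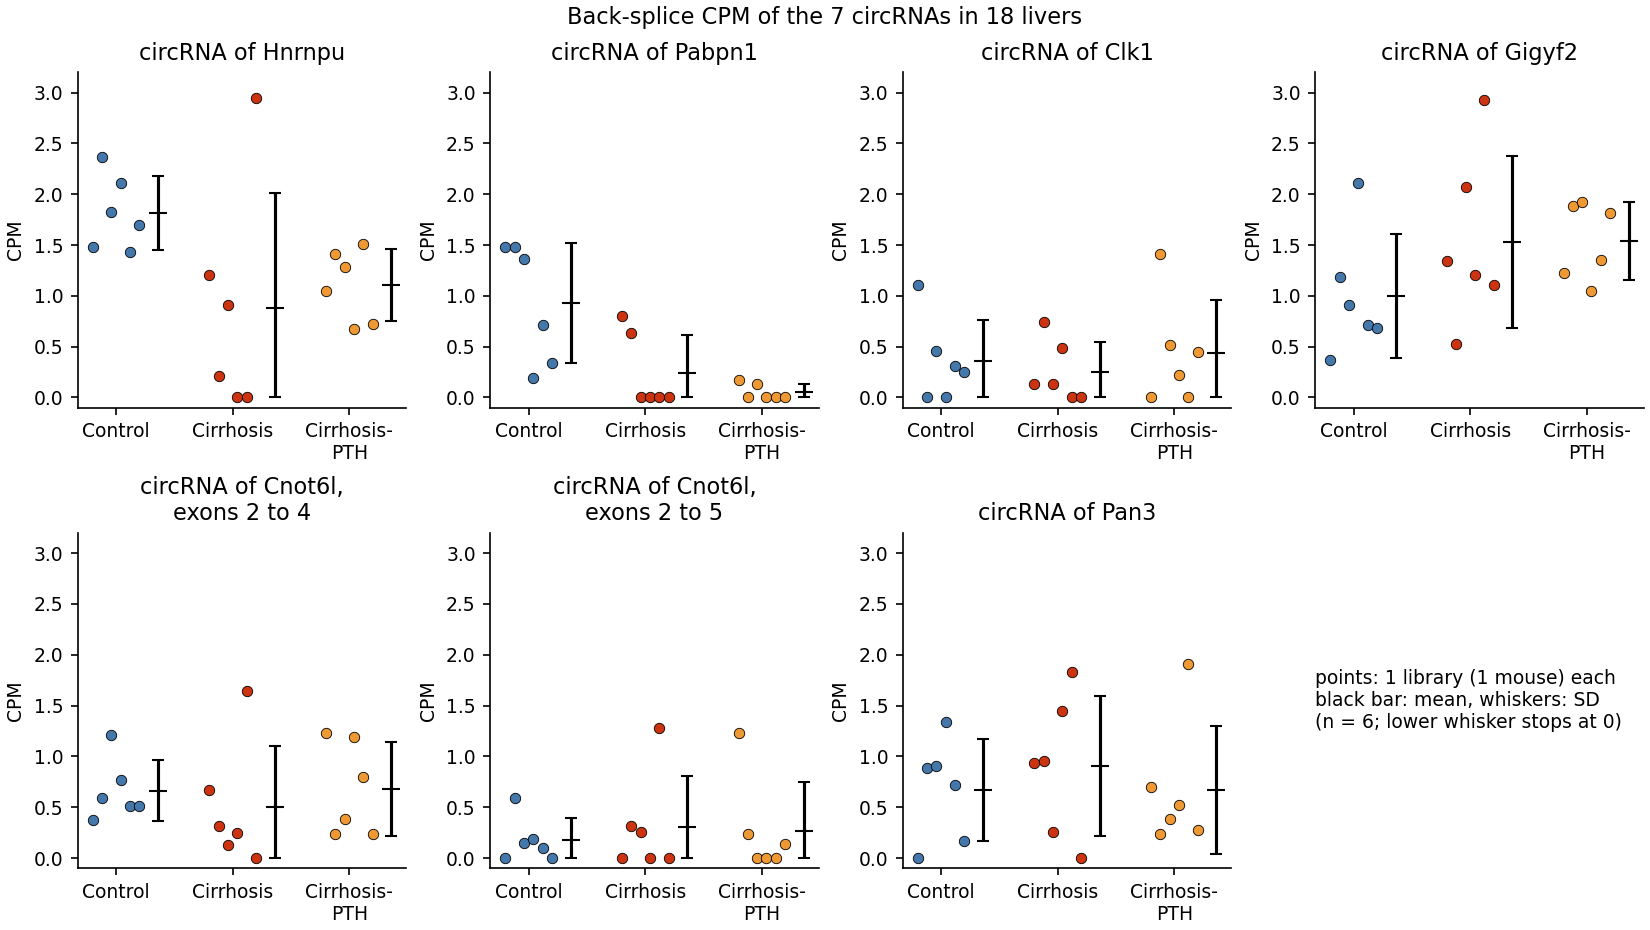
CPM of each circRNA in the 18 libraries, 1 point per mouse, with the mean and SD of each group of 6 beside the points (the lower whisker stops at 0). Hnrnpu and Pabpn1 are low in most libraries given CCl4, with Cirrhosis 6 at 2.95 CPM for Hnrnpu. The groups of every circRNA overlap, except Cirrhosis-PTH and Control for Pabpn1.

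Clk1 was sparse in all groups. Its levels in Control ran from 0 over a median of 0.280 to 1.11 CPM, in Cirrhosis from 0 over 0.132 to 0.742, and in Cirrhosis-PTH from 0 over 0.335 to 1.42. In each group 2 of 6 libraries were at 0, and the groups overlapped over nearly their whole range. The means of 0.354 ± 0.410, 0.248 ± 0.300 and 0.433 ± 0.528 CPM (SD, n = 6) rested on single libraries: leaving out the highest one of each group gave 0.203, 0.149 and 0.237. Cirrhosis differed from Control by -0.28 ± 0.71 on the log2 scale, Cirrhosis-PTH from Cirrhosis by 0.40 ± 0.71 and Cirrhosis-PTH from Control by 0.12 ± 0.71, with limma adjusted p values of 0.916, 0.860 and 0.984. The 95% interval of the first ran from -1.68 to 1.12, so sizeable differences either way were not detectable at this depth.

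Pabpn1, the polyadenylation gene, had the most uneven circRNA between groups. Control libraries stood at 0.192 CPM at the lowest, 1.04 at the median and 1.48 at the highest, and none was at 0. In Cirrhosis 4 of 6 libraries were at 0, and the highest stood at 0.804 CPM. In Cirrhosis-PTH 4 of 6 were at 0 and the other 2 had a single read each, with the highest at 0.175 CPM, below every Control library. The lowest Control library, Control 6, also had 1 read, so the gap between these 2 is one of CPM per read. The 8 libraries at 0 could have shown the Control mean of 0.928 CPM, since their limits of 3 reads lay at 0.103 to 0.725 CPM. In Cirrhosis-PTH 6, the deepest library of the series, 0 of 8431 reads allow a share of up to 0.0356%.

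The Pabpn1 mean was 0.928 ± 0.589 CPM for Control, 0.240 ± 0.376 for Cirrhosis and 0.0506 ± 0.0798 for Cirrhosis-PTH (SD, n = 6), from 30, 12 and 2 reads. Without the highest library of the group the Cirrhosis mean was 0.127 and the Cirrhosis-PTH mean 0.0257 CPM. With the reads of each group divided by its summed library totals, which weights deep libraries more than the means do, the level was 27.7-fold lower in Cirrhosis-PTH than in Control, with an exact 95% interval of 7.03 to 239 that covers counting error only. Without Cirrhosis-PTH 6, the deepest library, the ratio was 16.6, with an interval of 4.22 to 144. Cirrhosis-PTH against Control gave a log2 difference of -2.32 ± 0.71, below the Control mean in 6 of 6 libraries. Its limma unadjusted p of 0.00107 was the smallest of the 474 in this comparison, and the limma adjusted p was 0.506. The groups did not overlap, as for 0.422% of all circRNAs in that direction, though with 1 read on each side of the gap. Being listed took at least 9 libraries above 0, and Pabpn1 had 6 in Control and 2 in each CCl4 group. It was thus listed only through Control, where it was high. The gap, the ratio and the rank of its p are therefore a description and no support for a difference. DESeq2 gave -4.60 with an adjusted p of 0.0534 and edgeR -3.92 with 0.514, and over 18 alternatives the adjusted p ran from 0.0534 to 0.795. Cirrhosis against Control gave -1.80 ± 0.71 (limma adjusted p = 0.236), with 6 of 6 libraries below the Control mean, and Cirrhosis-PTH against Cirrhosis -0.52 ± 0.71 (limma adjusted p = 0.815), where edgeR gave -2.30, DESeq2 -2.59 and the median centring -0.0024 in place of -0.52. The comparisons with Control share the Control libraries and are not independent of each other.

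Gigyf2, the translational repressor, had the circRNA with the highest mean of the 7 over all 18 libraries, though not in Control, and was detected in every library. Control libraries ran from 0.370 over 0.812 to 2.11 CPM, Cirrhosis libraries from 0.530 over 1.27 to 2.92, and Cirrhosis-PTH libraries from 1.04 over 1.58 to 1.93. All 6 Cirrhosis-PTH libraries and 5 of 6 Cirrhosis libraries lay above the Control mean, yet the ranges overlapped. The means were 0.994 ± 0.609, 1.53 ± 0.843 and 1.54 ± 0.382 CPM (SD, n = 6), from 37, 58 and 114 reads. The log2 difference was 0.56 ± 0.64 for Cirrhosis against Control (limma adjusted p = 0.809) and 0.69 ± 0.64 for Cirrhosis-PTH against Control (limma adjusted p = 0.876). Cirrhosis-PTH against Cirrhosis gave 0.13 ± 0.64, with a 95% interval of -1.13 to 1.40 and limma's adjusted p = 0.937. The median centring moved the first of these to -0.02, so its direction followed the scaling.

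The deadenylase genes gave 3 circRNAs, and all overlapped between groups. Pan3 ran from 0 over 0.801 to 1.34 CPM in Control, from 0 over 0.946 to 1.83 in Cirrhosis, and from 0.236 over 0.454 to 1.91 in Cirrhosis-PTH. The libraries at 0 were Control 1, the shallowest of the series, and Cirrhosis 6. Its means were 0.671 ± 0.502, 0.905 ± 0.691 and 0.671 ± 0.629 CPM (SD, n = 6), and 24 of the 47 Cirrhosis-PTH reads came from Cirrhosis-PTH 5, without which that mean was 0.424. Its log2 differences, in the order used for Clk1, were 0.30 ± 0.72, -0.19 ± 0.72 and 0.11 ± 0.72 (limma adjusted p = 0.914, 0.937 and 0.984). Each of these turned its sign under other settings.

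The shorter Cnot6l circRNA was above 0 in 17 of 18 libraries, with Cirrhosis 6 at 0. It ran from 0.370 over 0.551 to 1.21 CPM in Control, from 0 over 0.280 to 1.64 in Cirrhosis and from 0.236 over 0.590 to 1.23 in Cirrhosis-PTH. In Cirrhosis 4 of 6 libraries lay below every Control library, while Cirrhosis 5 lay above all of them. The means were 0.660 ± 0.301, 0.500 ± 0.604 and 0.679 ± 0.459 CPM (SD, n = 6), and the Cirrhosis mean was 0.272 without Cirrhosis 5. The log2 difference was -0.72 ± 0.73 for Cirrhosis against Control (limma adjusted p = 0.773), 0.62 ± 0.73 for Cirrhosis-PTH against Cirrhosis (limma adjusted p = 0.792) and -0.10 ± 0.73 for Cirrhosis-PTH against Control (limma adjusted p = 0.984).

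The longer Cnot6l circle, with exon 5, was rarer. The highest library of each group stood at 0.592 CPM for Control, 1.28 for Cirrhosis and 1.23 for Cirrhosis-PTH, over medians of 0.127, 0.129 and 0.0686. These rest on few reads: 2 in Control 2, against 1 in each of 3 other Control libraries, and 7 in Cirrhosis 5 and in Cirrhosis-PTH 1. Control 1, at 0, has a limit of 1.11 CPM, above the value of Control 2. Means were 0.173 ± 0.220, 0.309 ± 0.496 and 0.267 ± 0.480 CPM (SD, n = 6) and dropped to 0.0891, 0.115 and 0.0747 without that library. Its log2 differences of 0.18 ± 0.62, -0.14 ± 0.62 and 0.04 ± 0.62, in the order used for Clk1, had limma adjusted p values of 0.938, 0.937 and 0.986. Both circles share their upstream splice site, and of their 118 reads 24.6% came from the longer one. That share was 16.1% in Control (5 of 31 reads), 38.7% in Cirrhosis (12 of 31) and 21.4% in Cirrhosis-PTH (12 of 56), with 7 of the 12 in each CCl4 group from 1 library. No test was made of it.

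**Figure D4:**
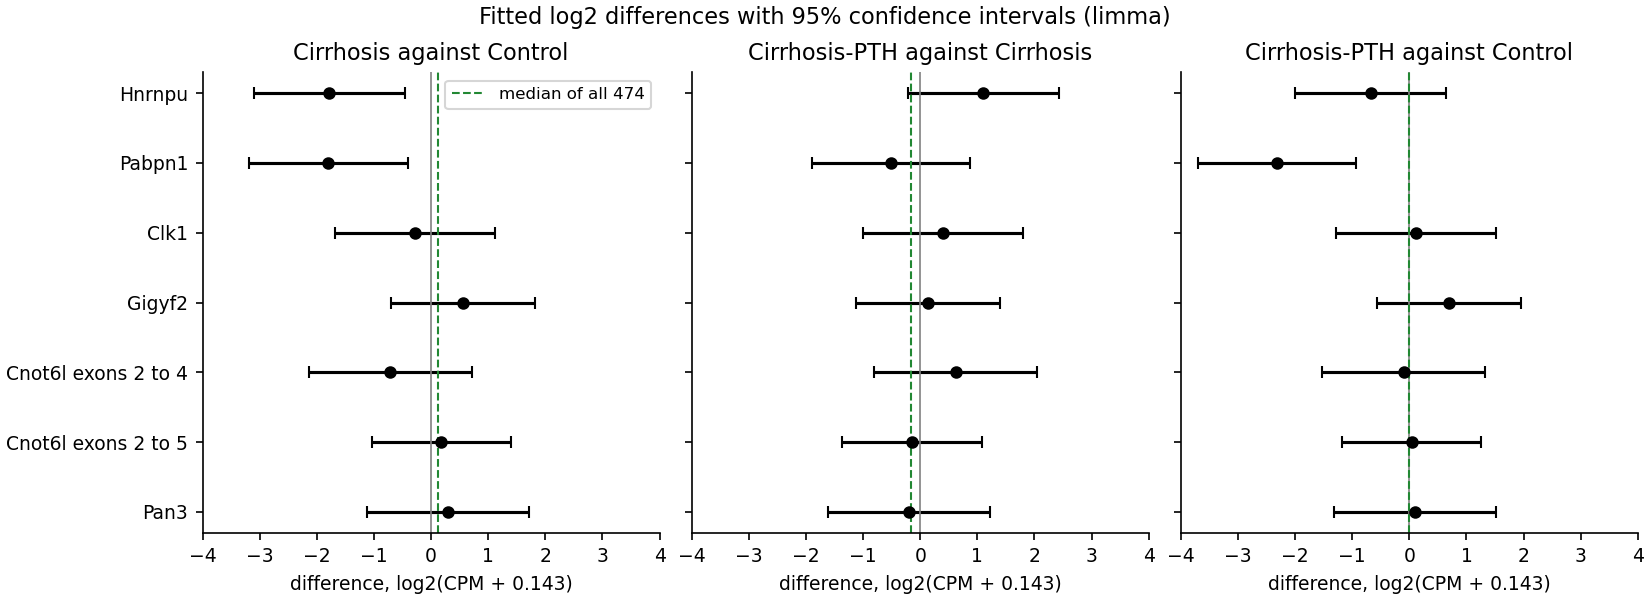
Fitted difference of each circRNA in the 3 comparisons on the log2(CPM + 0.143) scale, with 95% confidence intervals from limma and the median of all 474 circRNAs as a dashed line. The intervals of Hnrnpu and Pabpn1 lie below 0 in Cirrhosis against Control and that of Pabpn1 in Cirrhosis-PTH against Control, before any adjustment for 474 tests, and the others cross 0.

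As a set the 7 circRNAs had differences of both signs on the deposited scale, and the count in each direction moved with the scaling. In Cirrhosis against Control 4 of 7 were lower, where 43.9% of all circRNAs were lower and 56.1% higher, and their median log2 difference was -0.28 against 0.12 over all. With median centring 7 of 7 were lower, where 71.1% of all were, and the medians were -0.86 against -0.46. In Cirrhosis-PTH against Cirrhosis 3 of 7 were lower, against 58.0% of all lower and 42.0% higher, with a median of 0.13 against -0.17. With median centring 1 of 7 was lower and 6 higher, where 36.1% of all were lower, and the medians were 0.65 against 0.34. In Cirrhosis-PTH against Control 3 of 7 were lower, against 50.2% of all lower and 49.8% higher, with a median of 0.04 against -0.01. With median centring 4 of 7 were lower, where 53.8% of all were. No member passed limma at an adjusted p of 0.05 in any of the comparisons, as no circRNA of the table did (0.0% in each). At an unadjusted limma p under 0.05 there were 2 of the 7 in Cirrhosis against Control, both lower, where 3.38% of all were lower and 8.86% higher. In Cirrhosis-PTH against Cirrhosis there were 0 of 7, where 5.49% of all were lower and 1.69% higher. In Cirrhosis-PTH against Control there was 1, lower, where 3.8% were lower and 1.48% higher. After adjustment edgeR and DESeq2 called none of the 7, and at most 0.211% of all in any comparison.

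The share of the listed back-splice reads, a measure free of the total behind the CPM, was also taken for the 7 together. In Control they held 2.25 ± 0.480% of reads (mean ± SD, n = 6), against 1.46 ± 0.415% in the Cirrhosis group and 2.16 ± 0.849% with PTH. The libraries ran from 1.64 to 2.79%, from 0.878 to 1.79% and from 1.26 to 3.67%, so the groups overlapped. Reads of the 7 were also divided by those of the 26 circRNAs found in all libraries, among which was only Gigyf2 of the 7. This ratio ran from 8.79 to 14.4% in Control, from 3.27 to 8.19% in Cirrhosis and from 5.93 to 16.0% in Cirrhosis-PTH. Control and Cirrhosis did not overlap on it. How often other sets of circRNAs are apart on this ratio was not counted. Centring on the same 26 put 71.1% of all circRNAs lower in Cirrhosis than in Control. Of all listed reads Hnrnpu alone held 0.749 ± 0.203% for Control, 0.271 ± 0.287% for Cirrhosis and 0.493 ± 0.184% for Cirrhosis-PTH. Pabpn1 held 0.345 ± 0.170%, 0.0969 ± 0.151% and 0.0205 ± 0.0322%. The order of the groups for both was that of their CPM.

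Other genes of RNA processing and decay were taken from 5 lists of 282 symbols in all, of which 18 genes had a listed circRNA, 23 circRNAs with the 7 above. In none of the comparisons did a circRNA of these lists pass limma in either direction (0 of 23). At an unadjusted limma p under 0.05 there were 3, 1 and 1 of the 23, where 58, 34 and 25 of all 474 were. In Cirrhosis against Control 11 of 23 were higher and 12 lower, where 56.1% of all 474 were higher, with a median log2 difference of -0.04. With median centring 6 of 23 were higher (median -0.62), where 71.1% of all were lower. In Cirrhosis-PTH against Cirrhosis 12 were higher and 11 lower (median 0.13), where 42.0% of all were higher. With centring 17 were higher (median 0.65), where 36.1% of all were lower. In Cirrhosis-PTH against Control 13 were higher and 10 lower (median 0.08), where 49.8% of all were higher. With centring 12 were higher (median 0.01), where 53.8% of all were lower.

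Among 7 circRNAs of splicing regulators, Ptbp3 (exons 3 to 5), of a polypyrimidine tract-binding protein, had the highest mean outside the 6 genes. Its group medians, in the order Control, Cirrhosis and Cirrhosis-PTH as for all below, were 1.23, 1.27 and 0.433 CPM, with highest libraries at 2.96, 4.61 and 1.65. Srpk2, which encodes a kinase of the serine- and arginine-rich factors as Clk1 does, stood at means of 0.516 ± 0.379, 0.139 ± 0.161 and 0.187 ± 0.202 CPM (SD, n = 6, here and in the values after it). Hnrnpll, of another hnRNP, stood at 0.147 ± 0.243, 0.716 ± 0.767 and 0.173 ± 0.214 CPM. The single spliceosome circRNA, of the U2 component gene Sf3b3, stood at 0.254 ± 0.277, 0.173 ± 0.314 and 0.447 ± 0.335 CPM.

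In the list of 3′ end processing all 4 circRNAs had a negative difference in Cirrhosis against Control, where 43.9% of all circRNAs did. Pabpn1 was the 1 of unadjusted limma p under 0.05, where 3.38% of all were lower at that p. Those of Cstf3, a cleavage stimulation factor gene, had means of 0.520 ± 0.519, 0.374 ± 0.417 and 0.524 ± 0.551 CPM for the circle of exons 2 and 3. For exons 15 to 17 they were 0.170 ± 0.241, 0.0834 ± 0.136 and 0.250 ± 0.254 CPM. That of the Integrator subunit gene Ints8 stood at 0.451 ± 0.538, 0.329 ± 0.428 and 0.216 ± 0.291 CPM. Their log2 differences from Control in Cirrhosis were -0.24 to -0.37, against -1.80 for Pabpn1.

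Of 8 circRNAs from deadenylation, decapping and decay genes, that of Cnot2, a subunit gene of the complex that holds CNOT6L, stood at 0.224 ± 0.304, 0.564 ± 0.521 and 0.305 ± 0.302 CPM for exons 2 to 4, and at 0.0943 ± 0.104, 0.0580 ± 0.0995 and 0.251 ± 0.260 for exons 2 to 3. The decapping enzyme gene Dcp2 stood at 0.207 ± 0.348, 0.590 ± 0.458 and 0.680 ± 0.538 CPM. Of 3 surveillance circRNAs all had a positive difference in Cirrhosis against Control, where 56.1% of all circRNAs did, though Gigyf2 not with median centring. The other two were those of Smg1, a kinase gene of nonsense-mediated decay, at 0.210 ± 0.444, 0.548 ± 0.736 and 0.164 ± 0.212 CPM, and of Ascc3, a helicase gene, with log2 differences of 1.57 ± 0.72 from Control (limma adjusted p = 0.381) and, in Cirrhosis-PTH, -2.05 ± 0.72 from Cirrhosis (limma adjusted p = 0.386).

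Across the 18 libraries the circRNAs most like 6 of the 7 in pattern (not Cnot6l exons 2 to 5) were looked for by Spearman's rho of CPM, as a description of values that share library, depth and group. The closest to Hnrnpu was that of Tlk1 (rho 0.766), followed by Gphn (0.659). The closest to Pabpn1 were those of Hpn (0.737) and Exoc3l2 (0.728). Clk1 was closest to Homer1 (0.730) and Gigyf2 to Aldh16a1 (0.654). The shorter Cnot6l circle was closest to Cyp2c70 (0.702), and Pan3 to Lrp6 (0.795). The first one named for each was the highest value over the whole list, and none of the 2 closest to any was from the 6 genes.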

How the data were processed

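Liver RNA depleted of ribosomal RNA went into NEBNext libraries, per the labels' protocols. The deposited values are CPM per circRNA and library, made by the authors, and no source used here says which total they are scaled to. CircRNAs were named by CIRI, per the file headers. GRCm38, Trim Galore, cutadapt 4.2, HISAT2 2.2.1, Bowtie 1.3.1, StringTie 2.1.5 and Bowtie2 are listed, per the submitters' processing notes, with no role given. All 5886 values above 0 were whole multiples of 1 read (100% within 0.01 reads), which gave recovered reads. Hosts and exons came from GENCODE M21. The main test was limma 3.58.1 (R 4.3.3, trend option) on log2(CPM + 0.143), 1 model of 18 libraries, 2-sided, adjusted by Benjamini-Hochberg over 474 circRNAs at 0.05. On simulated data, with a spread that was set and not fitted to these data, limma missed part of the changes put in. edgeR 4.0.16 and DESeq2 1.42.0 were run on recovered reads. RNA was taken from each liver separately, per the labels, so each library counts as 1 mouse, of 15 treated per group. The 6 genes and the lists were chosen with earlier results of these data known. Named were all circRNAs of the 6 genes and, of each list, the 2 highest outside them and the 2 of smallest p per comparison. A gene that this rule names is not reported here.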

Additional observations from a re-analysis of the deposited data

Results flagged for a closer look

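Among the 21 sets of 6 libraries (7 circRNAs in 3 groups), 5 had a library set far apart from the nearest other one, where chance gives about 1 in 20 for normally distributed values. These values are counts of few reads, with a different CPM per read in each library, so that rate does not hold for them. Cnot6l exons 2 to 5 had one in every group: Control 2 at 0.592 CPM (2 reads) over a next value of 0.192 (1 read), Cirrhosis 5 at 1.28 CPM over 0.318 and Cirrhosis-PTH 1 at 1.23 CPM over 0.236. Clk1 had Cirrhosis-PTH 2 at 1.42 CPM over 0.514, and Pan3 had Cirrhosis-PTH 5 at 1.91 CPM over 0.701. In all 5 the library was the highest of its group.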

How the results depend on the processing

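Of 141 values of the 7 circRNAs under other settings, 123 kept direction and side of the threshold, 1 passed it (Hnrnpu, Cirrhosis against Control, median centring) and 17 turned sign; of 252 with 1 library left out, 228 kept both and 24 turned sign. Counts of circRNAs past the adjusted threshold were 0 in the main limma test. In Cirrhosis against Control the median centring gave 2 and DESeq2 1, and in Cirrhosis-PTH against Cirrhosis edgeR and DESeq2 gave 1 each. Leaving out 1 library gave 0 to 1 in both (1 without Control 3 in the first and without Cirrhosis 1, 2 or 3 in the second) and 0 in Cirrhosis-PTH against Control. At an unadjusted p under 0.05 limma gave 58, 34 and 25, edgeR 29, 25 and 19, and DESeq2 38, 37 and 28 circRNAs.
With median centring, log2 differences in Cirrhosis against Control became -0.022 for Gigyf2, -0.40 for Cnot6l exons 2 to 5 and -0.28 for Pan3. In Cirrhosis-PTH against Cirrhosis they became 0.37 for Cnot6l exons 2 to 5 and 0.32 for Pan3, and in Cirrhosis-PTH against Control -0.026 for Cnot6l exons 2 to 5, which the smaller pseudocount put at -0.031. DESeq2 gave -0.038, 0.021 and -0.017 for Pan3 in the 3 comparisons in turn, edgeR 0.11 for Pan3 in Cirrhosis-PTH against Cirrhosis, and a pseudocount of 1 CPM -0.0075 for Pan3 in Cirrhosis-PTH against Control. For Cnot6l exons 2 to 4 in Cirrhosis-PTH against Control edgeR gave 0.37 and DESeq2 0.18.
Whether replicate numbers in the titles pair the mice was not settled. Same-numbered libraries correlated at most at 0.0817. Cirrhosis libraries 1, 3 and 6, but not 2, were closest to the Control library of the same number. In Cirrhosis-PTH against Cirrhosis this held for number 4 only, and in Cirrhosis-PTH against Control for none. With so few reads per value, a low correlation cannot tell paired from unpaired mice. The replicate block used libraries with shared numbers only. Against Control it left out Control 7 and 8 and libraries 4 and 5 of the CCl4 group compared. Cirrhosis 4 and 5 were both at 0 for Hnrnpu, so its value below is not one of pairing alone. Counts stayed at 0 in all comparisons with this block. In Cirrhosis against Control Hnrnpu became -0.88 (limma adjusted p = 0.799), Cnot6l exons 2 to 5 -0.36 and Pan3 -0.44, and Pan3 -0.43 in Cirrhosis-PTH against Control.
Leaving out 1 library, Cirrhosis against Control ran from -0.58 to 0.069 for Clk1, -0.27 to 0.47 for Cnot6l exons 2 to 5 and -0.13 to 0.79 for Pan3. Cirrhosis-PTH against Cirrhosis ran from -0.10 to 0.34 for Gigyf2, -0.61 to 0.30 for Cnot6l exons 2 to 5 and -0.68 to 0.078 for Pan3. Cirrhosis-PTH against Control ran from -0.27 to 0.47 for Clk1, -0.29 to 0.084 for Cnot6l exons 2 to 4, -0.43 to 0.33 for Cnot6l exons 2 to 5 and -0.32 to 0.35 for Pan3. Divided by the reads of circRNAs found in all 18 libraries, those of the 7 came to 10.9% for Control, 6.52% for Cirrhosis and 9.12% for Cirrhosis-PTH. This is a ratio and not a share, since only Gigyf2 of the 7 is among those circRNAs. The cause of these changes was not tested. With a minimum of 12 libraries, Pabpn1 and Cnot6l exons 2 to 5 gave no value. A median of 2 reads per value limits all of this.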
